A study of Mus musculus with 86 samples.

Results

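Lars2 encodes the mitochondrial leucyl-tRNA synthetase, the nuclear-encoded enzyme that loads leucine onto its tRNA for translation inside mitochondria. Its 3′ UTR was 1 of 16 mouse 3′ UTRs cut into overlapping oligos for a massively parallel reporter assay (MPRA), a binding assay and a decay assay, and it was taken into the library from an RNA whose localization did not reliably depend on TDP-43. All oligos carrying the symbol Lars2 in their name were taken, 240 of the 11955 oligos in the pool. They comprised 155 wild-type oligos, numbered 1 to 155 from the 5′ end, and 85 mutated companions of numbers 19 to 103. Each oligo was 260 nt long and started 6 nt after its neighbour, so only oligos at least 44 numbers apart shared no base. Oligos are therefore overlapping views of 1 sequence, not replicates.

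TDP-43 is an RNA-binding protein that prefers stretches rich in alternating G and U. It shuttles between nucleus and cytoplasm, and its loss from the nucleus is a hallmark of several neurodegenerative diseases. A 3′ UTR can carry sites that set where in a neuron an RNA is found and how long it lasts, and such sites are read by proteins that bind them.

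Knockout cells were CAD cells, a mouse neuronal line, from a single-cell clone in which guide RNAs had inactivated the endogenous TDP-43 alleles and an HA-tagged TDP-43 transgene was kept on by a doxycycline-off promoter (genotype label TetOff TDP-43). All MPRA and SLAM-seq libraries carried this genotype, as did the CAD and N2A libraries described below. N2A is another mouse neuronal line. "Wild-type cells" received no doxycycline (minus dox) and "knockout cells" received doxycycline for 48 h (plus dox). The labels give 2 µg/mL and the methods a lower dose. The reporters were pooled plasmids with the oligo in the 3′ UTR of GFP. The MPRA had 4 replicates each of wild-type and knockout soma and neurite. RNA Bind-N-Seq (RBNS), an in vitro binding assay with recombinant SBP-tagged TDP-43 and the oligo pool as RNA, had 1 input library, 1 at 0 nM and 2 each at 5, 50 and 500 nM protein. SLAM-seq, in which 4-thiouridine (4SU) taken up by cells is read as a T>C conversion, had 2 wild-type libraries at 0 h of chase, 3 at 12 h, 3 knockout libraries at each time, and 3 wild-type libraries without 4SU. The endogenous gene was measured in 36 RNA-seq libraries, 12 each from the CAD line, the N2A line and CAD cells with 1 integrated doxycycline-inducible HA-tagged transgene of wild-type (WT) or Q331K TDP-43, with 3 replicates of soma and of neurite per group. The labels call the last set overexpression, while the study describes the total TDP-43 level as little changed by induction because the endogenous alleles fell.

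The tiled sequence was 1184 nt long. It began at chr9:123461579 on the plus strand of GRCm38 (mm10), 97 bases before the stop codon at 123461676 to 123461678, and lay wholly within the last of 21 exons as far as that exon was annotated. The annotated 3′ UTR of the coding transcript was 986 nt, ending at 123462664, and the tile ran 98 bases past that end, so oligos 1 to 138 lay whole inside the transcript. The study's 3 GU-rich motifs were UGUGU, its shifted form GUGUG, which can overlap it, and the related pentamer GUAUG. In the Lars2 tile 3 sites occurred, and all were UGUGU. They are the only bases that differ between a wild-type oligo and its mutated companion, in which UGUGU was replaced by ACACA, and are shown because the comparisons of the paired oligos turn on them (capitals, UGUGU as DNA; 29 bases from the GENCODE vM21 transcript, 5′ to 3′).
Site 1, chr9:123461928-123461956: ttttaagcaggaTGTGTcagaaaagttac
Site 2, chr9:123462130-123462158: ccctactgatgaTGTGTtgttgccatggt
Site 3, chr9:123462182-123462210: ccgcagctagctTGTGTctccagtgtctt
Site 1 was held by 43 mutated oligos (19 to 61), site 2 by 42 (53 to 94) and site 3 by 43 (61 to 103). Of the 85 pairs, 43 held 1 site, 41 held 2 and oligo 61 held all 3. No motif occurred in the wild-type oligos 1 to 18 and 104 to 138. Part of the sequence is not private to Lars2: 187 bases from chr9:123461933 to 123462119 aligned to the transcript AA474408 at 80.1% identity over 196 columns, and within it 72 bases aligned to Gm15564 at 98.6%. Nearer the 3′ end, parts of chr9:123462506 to 123462600 aligned to 34 transcripts of 23 genes, on either strand, at 74.4% to 89.2% identity. Stretches of Lars2 may also resemble ribosomal RNA, whose own sequence was not compared here. Transcripts annotated over ribosomal RNA were among those searched, as given below. Shared sequence bears on the endogenous gene below.

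MPRA libraries held 7923270 to 12208997 unique molecular identifiers (UMIs), RBNS libraries 1806779 to 9646262 reads, SLAM-seq libraries 10782983 to 33024830 reads and RNA-seq libraries 9783050 to 32895542 estimated counts. A Lars2 oligo had a median UMI count per MPRA library between 29 and 3484. In CAD RNA-seq, Tardbp, which encodes TDP-43, fell from 515 to 569 CPM to 90.4 to 98.3 CPM in soma and from 491 to 536 CPM to 129 to 150 CPM in neurites on doxycycline (edgeR log2 fold change -2.52 ± 0.08 SE and -1.89 ± 0.08, adjusted p = 3.35e-12 and 3.92e-11). Neuronal markers were high (Tubb3 164 to 557 TPM, Snap25 71.8 to 302 TPM in CAD libraries), of the catecholaminergic markers Th and Ddc were at most 3.18 and 1.18 TPM and Dbh was at 2.66 to 52.3 TPM, and the astrocyte marker Aqp4 was at most 0.0354 TPM. The labels do not say whether replicates were separate cultures, so p-values measure the spread between these libraries, which may be technical.

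For 11 of the 85 pairs, numbers 34 to 43 and 77, the forms were not told apart in cells. Their motif lay in the middle of the oligo, the SLAM-seq table held a median of at most 21.5 reads per library for either form, and the wild-type and mutated UMI counts were alike, with log2 ratios of mutated over wild-type between -0.08 and 0.09. The other 74 Lars2 pairs had ratios between -1.20 and 2.07. The same held across the pool: among 594 pairs whose first motif started at positions 109 to 168 of the oligo, 554 had this pattern. RBNS input counts of the 11 pairs did not share it. The values of these pairs in the MPRA are therefore given only within counts, and they could not be tested in SLAM-seq. The cut, a median under 50 SLAM-seq reads for both forms, was chosen after the data were seen. Above it, pair 76 had medians of 121 and 141 reads (wild-type and mutated) and pair 44 had 213.5 and 224.5. Their UMI log2 ratios were -0.02 and -0.06, so whether their forms were fully told apart is unsure.

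Loss of TDP-43 left the reporters of the Lars2 3′ UTR close to where they were. LR, the log2 of neurite over soma abundance, was compared between knockout and wild-type cells by the interaction of compartment and doxycycline. None of the 240 oligos passed (edgeR quasi-likelihood test, FDR 0.01 over 11918 oligos), against 5.15% of all oligos that passed upwards and 0.277% downwards. At an unadjusted p under 0.05 there were 6 Lars2 oligos, beside 1182 of all 11918, and DESeq2 called 0. The median change in LR was -0.001 over the Lars2 oligos and -0.006 over all oligos, and the lowest adjusted p was 0.360. In simulated counts a change of 0.5 was recovered in 96.7% of the changed oligos. These were drawn from the whole pool without its least abundant oligos and with a common spread, so this share does not hold for the rarest Lars2 oligos. Lars2 was 1 of 6 UTRs with no oligo of increased LR, beside Soga3, Sos2, Ssc5d, Synj2bp and Tub.

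Oligo 131, the least abundant wild-type oligo, had the lowest change in LR (-0.42 ± 0.27 SE, edgeR adjusted p = 0.757). It was at 4.30, 3.52, 4.04 and 3.08 CPM in the 4 wild-type neurite libraries and 2.04, 2.24, 2.67 and 2.67 CPM in the 4 knockout neurite libraries. In soma it was between 2.22 and 3.59 CPM in wild-type and between 2.22 and 2.71 CPM in knockout cells. The neurite groups did not overlap and the soma groups did. Oligo 111 had the highest change (0.30 ± 0.16, adjusted p = 0.630), from 11.7 to 14.6 CPM in wild-type and from 14.1 to 16.99 CPM in knockout neurites, which overlapped.

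Within soma, no Lars2 oligo passed for knockout against wild-type cells, against 7.55% of all oligos higher and 0.101% lower. At an unadjusted p under 0.05 there were 30 Lars2 oligos, 28 of them lower, beside 2094 of all 11918 oligos. DESeq2 called 2 Lars2 oligos, both lower. The Lars2 median was -0.05 on the log2 scale and that of all oligos -0.008. The most extreme uncalled oligos were 109 (0.21 ± 0.09 SE, edgeR adjusted p = 0.170) and 4 (-0.26 ± 0.09, adjusted p = 0.0657). In neurites 1 oligo passed and was lower, against 8.06% of all oligos higher and 0.696% lower, with a Lars2 median of -0.05 and -0.02 over all. That oligo was wild-type 87, whose sequence held sites 2 and 3. It was at 87.9, 90.4, 88.1 and 89.9 CPM in wild-type neurites and at 75.5, 78.6, 80.5 and 76.7 CPM in knockout neurites (log2 fold change -0.19 ± 0.04 SE, edgeR adjusted p = 0.0012). The groups did not overlap, and the call was lost without replicate 1, 2 or 4. Its mutated companion was at 160 to 168 CPM in wild-type and 151 to 161 CPM in knockout neurites, a log2 fold change of -0.08 ± 0.04 that did not pass.

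These values rest on TMM scaling, which sets the bulk of the oligos level. Lars2 oligos made up 1.87% to 1.90% of UMIs in wild-type soma and 1.87% to 1.91% in wild-type neurites. The share was 1.59% to 1.72% in knockout soma and 1.17% to 1.23% in knockout neurites, below all wild-type libraries. This moved with the whole pool: scaled by total UMIs, the median over all oligos was -0.64 for knockout against wild-type neurites, and 239 Lars2 oligos were called lower there around a Lars2 median of -0.67. The change in LR then had a median of -0.51 over all oligos and -0.51 over Lars2, with 223 Lars2 oligos called lower. In soma the medians were -0.12 and -0.16, with 63 Lars2 oligos lower. The directions below are therefore relative to the bulk of the pool.

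Some reporters along the UTR were called unequal between compartments, in wild-type and in knockout cells. In wild-type cells 15 of 240 oligos were called neurite-enriched and 1 soma-enriched (2.57% and 1.48% of all oligos were called). This neurite share, 6.25%, was 4th among the UTRs, after Kank2 (11.9%), Diras1 (10%) and Wasf3 (7.62%). In knockout cells 13 were called neurite-enriched and 3 soma-enriched (5.82% and 1.22% of all oligos), so the neurite share there was near that of the pool. Total-count scaling, which lowered the whole pool, turned 230 oligos soma-enriched in knockout cells. Leaving out 1 replicate gave 6, 7, 13 and 10 calls in wild-type cells (without replicate 1, 2, 3 or 4) and 13, 11, 9 and 7 in knockout cells. The neurite-enriched oligos of wild-type cells were wild-type oligos 56, 63, 64, 65, 67, 68, 69 and 71 and mutated oligos 62, 63, 64, 65, 67, 68 and 71, with LR between 0.28 and 0.41. All but oligo 56 lay in the run 62 to 71.

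Oligo 68 may stand for the run. Its wild-type form was at 108, 102, 110 and 95.3 CPM in wild-type soma and at 134, 133, 136 and 138 CPM in wild-type neurites. In knockout cells it was at 102, 106, 90.1 and 101 CPM in soma and at 125, 125, 131 and 137 CPM in neurites. Neurite values exceeded all soma values in both genotypes, and LR was 0.38 ± 0.05 SE in wild-type and 0.38 ± 0.05 in knockout cells (edgeR adjusted p = 4.05e-06 and 3.44e-06). The mutated form of oligo 68, with sites 2 and 3 replaced, had an LR of 0.41 ± 0.06 in wild-type and 0.29 ± 0.06 in knockout cells (adjusted p = 2.08e-05 and 0.00252). Mutated oligos 65 and 63 followed with 0.41 ± 0.09 and 0.40 ± 0.07 in wild-type cells. The call of mutated oligo 65 was lost without any 1 replicate and that of 63 without replicate 1 (adjusted p = 0.0121 to 0.0532). In knockout cells wild-type oligo 64 had the highest LR of any Lars2 oligo, 0.47 ± 0.06, and its mutated form had 0.38 ± 0.07, a call lost without replicate 4 (adjusted p = 0.0201). Under total-count scaling these were -0.06 and -0.15, and -0.16 for wild-type oligo 68.

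Over the 20 oligos of the run, the median LR was 0.33 in wild-type cells (range 0.16 to 0.41) and 0.29 in knockout cells (0.04 to 0.47), and 14 and 10 of them were called. The other 220 Lars2 oligos had medians of 0.007 and 0.02. The limits of the run were drawn after the calls were seen, around the neurite-enriched oligos of wild-type cells. Its higher median and share of calls there follow from that choice and are a description, not a test. The 10 oligo numbers of the run share 206 bases, chr9:123461999-123462204, which hold sites 2 and 3 and 121 bases of the stretch that resembles AA474408. The run begins with the oligo that no longer holds site 1. Mutated oligos 53 to 60, in which site 1 was replaced, had an LR between -0.06 and 0.08 in wild-type cells. Mutated oligo 61, which also lacks site 1 and lies just outside the run, had 0.25 ± 0.06 there (edgeR adjusted p = 0.0182). After TDP-43 loss it was called at 0.35 ± 0.07 (adjusted p = 0.000706), so the 5′ border of the run is not sharp. A part of site 1 in the border of the run was not tested. Beyond the run, wild-type oligo 72 had an LR of 0.17 ± 0.07 in wild-type cells, and oligo 75, which starts 24 nt after oligo 71, was called on the soma side at -0.22 ± 0.05 (adjusted p = 0.00454). Oligo 75 was at 153, 154, 157 and 152 CPM in wild-type soma and at 131, 137, 125 and 138 CPM in wild-type neurites, without overlap, yet its call was lost when any 1 of the 4 replicates was left out (adjusted p = 0.0159 to 0.0618). In knockout cells oligos 75 and 76 were soma-enriched at -0.22 ± 0.05 and -0.31 ± 0.05, and mutated oligo 76 at -0.25 ± 0.05. The call of oligo 75 was lost there without replicate 1 or 4 (adjusted p = 0.102 and 0.0282) and with scaling on oligos of other UTRs without a motif (0.0133), and that of mutated oligo 76 without replicate 1 (0.0248).

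Across the 155 wild-type oligos, LR in wild-type and knockout cells had a Spearman rho of 0.45 and a Pearson r of 0.63. Across the 138 oligos with annotated sequence, LR in wild-type cells had a Spearman rho of 0.55 with the number of UG and GU dinucleotides in the oligo, and LR in knockout cells of 0.45. These are descriptions over overlapping oligos measured in the same libraries. The median number of such dinucleotides was 44 in oligos 61 to 80, 35 in oligos 41 to 60 and 21.5 in oligos 1 to 20.

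Replacing the UGUGU sites made no detectable difference to localization. The test compared each mutated oligo with its wild-type companion within each library and asked whether their difference in LR changed between knockout and wild-type cells. None of the 85 pairs passed (edgeR, FDR 0.01 over 4554 pairs), with 5 at an unadjusted p under 0.05, beside 627 of all 4554. Across the pool 7.58% of pairs passed with a lower and 0.022% with a higher change in the mutated form. The Lars2 median was -0.005 and that of all pairs -0.02. Of the 74 pairs counted as told apart, 0 passed and 3 were at an unadjusted p under 0.05. For oligo 61, with all 3 sites replaced, the difference was 0.05 ± 0.11 SE (adjusted p = 0.963). The most extreme pairs were 95 (0.29 ± 0.09, adjusted p = 0.0641) and 46 (-0.29 ± 0.14, adjusted p = 0.359). Pair 95, which held site 3 only, was at 63.1 to 70.4 CPM for the wild-type and at 63.7 to 74.9 CPM for the mutated form in knockout neurites. In simulated pairs, drawn from the pool in the same way, a change of 0.5 was recovered in 55.2% and a change of 1 in 98.95%. Effects of 0.5 or less, and larger ones in rare pairs, could therefore be missed.

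The same pair test for abundance gave 0 called pairs in soma and 0 in neurites for knockout against wild-type cells. At an unadjusted p under 0.05 there were 1 and 7 Lars2 pairs, beside 826 and 950 of all 4554 pairs. Across the pool, 12.5% of pairs in soma and 14.4% in neurites passed with the mutated form less raised, and 0.0878% and 0.11% with it more raised. The Lars2 medians were 0.009 in soma and -0.008 in neurites, against -0.02 and -0.03 over all pairs. For LR in wild-type cells 0 Lars2 pairs passed and 6 were at an unadjusted p under 0.05, beside 606 of all 4554 pairs. Across the pool 3.71% of pairs passed with a higher and 0.769% with a lower LR of the mutated form. No other tool was run on the pairs. Among pairs counted as told apart, the most extreme uncalled differences were those of pairs 97 (0.11) and 33 (-0.09) in soma and of pairs 99 (0.26) and 96 (-0.29) in neurites. In wild-type cells the mutated form of oligo 56 lacked the enrichment of its wild-type form (LR 0.06 ± 0.07 against 0.28 ± 0.06), a pair difference of -0.22 ± 0.07 that did not pass (adjusted p = 0.0625).

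In RBNS, the median Lars2 oligo was below input and below the median of the pool at 50 nM and 500 nM. At 500 nM 10 oligos were called above input, wild-type oligos 2, 15, 16, 17, 18, 24, 27, 58 and 67 and mutated oligo 24. All Lars2 oligos together made up 2.81% of reads in the input library (Wilson 95% interval 2.80% to 2.83%, counting error only) and 2.42% in the library at 0 nM. The share was 2.55% and 2.41% at 5 nM, 1.61% and 1.46% at 50 nM, and 2.04% and 2.24% at 500 nM. All 6 protein libraries lay below input, and those at 50 nM and 500 nM also lay below the library without protein. R is the relative frequency of an oligo in a protein-bound library over that in input, with 0.5 added to each count. The median R over the Lars2 oligos was 0.837 and 0.807 in the libraries at 5 nM, 0.434 and 0.350 at 50 nM, and 0.519 and 0.626 at 500 nM. All oligos had medians of 0.925 and 0.913, 0.688 and 0.610, and 0.656 and 0.732. At 0 nM, where no TDP-43 was present, the Lars2 median was 0.788 and that of all oligos 0.886.

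Against input at 5 nM, 0 Lars2 oligos passed (edgeR, FDR 0.05 over 11025 oligos), where 0.0272% of all oligos were called higher and 0.0181% lower. At an unadjusted p under 0.05 were 9 Lars2 oligos, all lower, beside 1305 of all 11025 oligos. DESeq2 called 0 Lars2 oligos. At 50 nM 0 were called higher and 151 lower, against 11.5% and 31.4% of all oligos. At 500 nM 10 were called higher and 86 lower, against 12.3% and 29.2%. The median log2 fold change was -1.32 for Lars2 and -0.62 for all oligos at 50 nM, and -0.90 and -0.55 at 500 nM. TMM scaling moved the medians of all oligos to -0.05 and 0.01 and left 3 higher and 59 lower at 50 nM and 20 higher and 36 lower at 500 nM, with Lars2 medians of -0.76 and -0.34. Of all oligos 20.8% were then higher and 18.3% lower at 50 nM, and 20.7% and 17.7% at 500 nM. The study used a pair of independent protein batches for its duplicates without tying them to a replicate number. With the replicate number as a block 99 Lars2 oligos were called at 50 nM, all lower, and 64 at 500 nM, 8 higher and 56 lower (8.46% of all oligos higher and 22% lower, and 9.24% and 18.7%). With 1 library at 50 nM left out, 92 (without replicate 1) and 18 (without replicate 2) were called, and with 1 at 500 nM left out, 51 and 97. The input and 0 nM libraries had no replicate and were taken to vary like the others. In counts simulated with a common spread and 200 changed features, a log2 change of 1 at 500 nM was recovered in 2.94% of changed oligos and a change of 2 in 44.9%. Fewer oligos changed there than were called in the data, so these shares do not give the detection limit here. Differences in binding may still have been missed.

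The highest R lay in a pair of neighbouring oligos without a UGUGU motif. Oligo 16 had R of 4.34 and 3.66 at 500 nM, 1.31 and 2.33 at 50 nM, 1.04 and 0.632 at 5 nM, and 1.01 at 0 nM. It ranked 956th of 11537 oligos by mean R at 500 nM, and the fitted log2 fold change was 2.00 ± 0.44 SE (edgeR adjusted p = 0.00505). Both libraries at 500 nM exceeded those at the lower concentrations. Oligo 17 followed with 3.32 and 3.18 at 500 nM (1.70 ± 0.35, adjusted p = 0.00368). Oligo 58, which held sites 1 and 2, had 3.07 and 3.38 at 500 nM but 0.435 and 0.642 at 50 nM (1.69 ± 0.44, adjusted p = 0.0113). Its mutated form still had the highest R of the mutated oligos, 2.04 and 2.20, ahead of mutated oligos 24 and 23 (mean 2.00 and 1.61). Oligo 1, the 5′-most, had R of 2.16 and 1.72 at 500 nM, and oligo 155, the 3′-most, had 0.0421 and 0.147. The highest R in the pool was 48.1 and 47.7 at this concentration.

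R fell along the UTR. Over wild-type oligos 1 to 20, 21 to 40, 41 to 60 and 61 to 80, the median R at 500 nM was 1.01, 1.03, 0.848 and 0.920. Over oligos 81 to 100, 101 to 120, 121 to 140 and 141 to 155 it was 0.435, 0.324, 0.0738 and 0.0798. At 50 nM the medians went from 0.796 in oligos 1 to 20 to 0.0762 in oligos 121 to 140 and 0.255 in the last window. R at 0 nM also fell, from 1.17 to 0.325 in the same windows, and stood at 0.704 in the last. GC content fell from a median of 54.2% in oligos 1 to 20 to 38.8% in oligos 121 to 138, and input reads were fewest in oligos 121 to 140 (median 87). Across the 138 wild-type oligos of annotated sequence, GC content had a Spearman rho with R of 0.70 at 500 nM, 0.88 at 50 nM and 0.77 at 0 nM, while the number of UG and GU dinucleotides had a rho of 0.215 with R at 500 nM. The part of GC content, input depth and the protein-free library in the fall of R was not tested.

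The oligos called lowest at 500 nM, 132, 134 and 128, had few reads. Oligo 132 had 33 reads in input, 0 at 0 nM, 0 and 1 at 500 nM, and 0 and 2 at 50 nM. Oligo 134 had 21 reads in input, 28 at 0 nM, 0 and 1 at 500 nM, and oligo 128 had 90 in input, 31 at 0 nM, 6 and 1 at 500 nM. No fold is given for such counts. At 50 nM oligos 132, 128 and 137 were lowest, the last with 75 reads in input, 25 at 0 nM, and 0 and 7 at 50 nM. The most extreme uncalled oligo at 5 nM was again 134, with 0 reads in both libraries.

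Replacing UGUGU moved binding of Lars2 pairs at 500 nM about as it did across the pool. Of 85 pairs, 10 passed with the mutated form bound less and 0 with it bound more (edgeR, FDR 0.05 over 4279 pairs). Of all pairs 14% passed lower and 3.15% higher. At an unadjusted p under 0.05 were 23 Lars2 pairs, beside 1158 of all 4279. The Lars2 median was -0.30 and that of all pairs -0.30. With the replicate number as a block 4 pairs passed, and pair 66 was not among them. The called pairs were 29, 34, 53, 57, 59, 61, 63, 64, 66 and 67. Oligo 61, the pair with all 3 sites, had R of 1.68 and 1.79 in the wild-type and 0.349 and 0.470 in the mutated form (log2 difference -2.10 ± 0.47 SE, adjusted p = 0.0147). Oligo 59, with sites 1 and 2, had 1.22 and 1.53 against 0.333 and 0.340 (-2.03 ± 0.44, adjusted p = 0.0132). Oligo 66, with sites 2 and 3, had 1.12 and 1.29 against 0.370 and 0.402 (-1.64 ± 0.47, adjusted p = 0.0428). In each of these pairs both wild-type values exceeded both mutated values. The pairs with the widest gaps in mean R were 67 (2.30 against 0.965), 61 and 60 (1.99 against 0.842), of which 60 did not pass. With 1 of the libraries at 500 nM left out, 0 pairs (without replicate 1) and 1 pair (without replicate 2) passed, so the count of 10 rests on both. A log2 difference of 2 was recovered in 5.77% of simulated pairs, while in the data pair 34 passed at -0.94. The simulation therefore does not give the detection limit here, and differences may still have been missed.

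By the sites held, 2 of 34 pairs with site 1 only passed, 3 of 8 with sites 1 and 2, the 1 pair with all 3, 4 of 33 with sites 2 and 3, and 0 of 9 with site 3 only. The medians were -0.33, -1.27, -2.10, -0.15 and 0.45. Of the 34 pairs with site 1 only, 30 were below 0, and of the 9 with site 3 only, 2 were. These groups hold overlapping oligos in different places of the UTR, and the differences between them were not tested. Pair 95, site 3 only, was the most positive, with R of 0.545 and 0.726 in the wild-type and 0.895 and 1.13 in the mutated form (0.67 ± 0.27, adjusted p = 0.145). None of the pairs that were bound less after mutation was called for its change in LR, in which 0 of the 85 pairs passed.

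Label was lost from Lars2 reporters at about the pace of the pool. Of the 232 Lars2 oligos in the SLAM-seq table, 218 had at least 1000 T positions in each of the 11 labelled libraries, and the 22 members not tested were the 11 pairs whose forms were not told apart. The T>C rate over the Lars2 oligos was 2.03% and 2.00% in wild-type cells at 0 h, and 1.17%, 1.15% and 1.33% at 12 h. In knockout cells it was 1.86%, 1.87% and 1.94% at 0 h, and 1.37%, 0.442% and 0.490% at 12 h. Without 4SU it was 0.227%, 0.182% and 0.149%. Knockout replicate 1 at 12 h stood apart from the other two knockout libraries of that time, near the wild-type ones, and the rate over all oligos did so too (1.37%, 0.465% and 0.511%). The tests that use it are given with and without it.

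The share of label left, the rate at 12 h over the mean rate at 0 h, had medians over Lars2 oligos of 0.566, 0.554 and 0.651 in the 3 wild-type libraries, against 0.591, 0.593 and 0.674 over all oligos. In knockout cells the medians were 0.727, 0.218 and 0.252, against 0.736, 0.234 and 0.262. In each of the 6 libraries the Lars2 median was slightly below that of the pool. Label loss was tested by edgeR on converted and unconverted T positions (FDR 0.05 over 10576 oligos). In wild-type cells 0 Lars2 oligos passed, where 0.00946% of all oligos passed as lower. At an unadjusted p under 0.05 were 31 Lars2 oligos, beside 1147 of all 10576. In knockout cells 218 of 218 passed, beside 97.2% of all oligos, but 0 did with the replicate 2 or the replicate 3 libraries left out. The change in loss between genotypes had 0 calls, beside 0% of all oligos. At an unadjusted p under 0.05 were 2 Lars2 oligos, beside 261 of all 10576, and the Lars2 median was -0.80 (all oligos -0.79). limma gave 0, 218 and 0 calls. With the replicate 1 libraries left out, which left 1 wild-type library at 0 h that was taken to vary like the others, 187 Lars2 oligos passed in wild-type cells and 207 for the change, beside 82.9% and 92.7% of all oligos.

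Without knockout replicate 1 at 12 h, 216 Lars2 oligos passed for loss in wild-type cells, 218 in knockout cells, and 214 for a greater loss in knockout than in wild-type cells, beside 97.0%, 99.7% and 96.3% of all oligos. The medians of this last difference were then -1.37 for Lars2 and -1.33 for all oligos, so Lars2 moved with the pool. The size of the difference between genotypes thus depended on 1 library. With the rates taken relative to each library's median, 0 Lars2 oligos passed in knockout cells, and the median was -0.08 for Lars2 and 0.004 for all oligos. At 0 h, 0 oligos differed between genotypes (edgeR; 0 at an unadjusted p under 0.05, limma 0; 0% of all oligos).

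Single oligos spread around these medians. Across wild-type oligos, the share of label left in wild-type cells had window medians between 0.563 (oligos 61 to 80) and 0.632 (oligos 101 to 120). Oligo 129 had the lowest estimate in wild-type cells (-1.50 ± 0.52 SE, edgeR adjusted p = 0.283), with T>C rates of 1.53% and 2.19% at 0 h and 0.898%, 0.303% and 0.894% at 12 h. The 12 h values lay below both 0 h values. The least negative was oligo 44 (-0.36 ± 0.51, adjusted p = 0.486), with 2.16% and 2.04% at 0 h and 1.44%, 2.21% and 1.41% at 12 h, which overlapped. Mutated oligo 58 lost most in knockout cells (-2.57 ± 0.48, adjusted p = 0.000141), from 1.76%, 1.56% and 1.72% to 0.887%, 0.0786% and 0.202%. The 12 h rates of replicates 2 and 3 lay below or within the range over Lars2 oligos without 4SU (0.149% to 0.227%). The size of this loss is therefore uncertain. Wild-type oligos 125 (-2.04 ± 0.48) and 22 (-2.03 ± 0.45) followed, and oligo 121 lost least (-1.01 ± 0.47). The 3 libraries at 12 h lay below those at 0 h for mutated oligo 58, with replicate 1 again the highest, and its call was lost without replicate 2 or 3 (adjusted p = 0.202 and 0.126). Across 144 wild-type oligos, label left in wild-type and knockout cells had a Spearman rho of 0.16.

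The endogenous Lars2 gene gave far higher levels in neurites than in soma. In wild-type CAD cells its summed transcripts were at 4487, 1342 and 867 CPM in soma and at 22152, 10246 and 7937 CPM in neurites. In knockout CAD cells they were at 4671, 2811 and 1450 CPM in soma and at 11097, 8023 and 11278 CPM in neurites. In such bulk samples a change in the makeup of the cells and a change of RNA per cell cannot be told apart. All neurite libraries exceeded all soma libraries, while the wild-type and knockout libraries overlapped in both compartments. The wild-type LR was 2.59 ± 0.54 SE (edgeR adjusted p = 7.51e-04, and 0.0128 without replicate 2; 23.7% of 17343 genes were called higher in neurites and 17.7% lower). Knockout against wild-type gave 0.42 ± 0.51 in soma and -0.41 ± 0.51 in neurites, and the change in LR was -0.82 ± 0.72 (adjusted p = 0.611, 0.579 and 0.765; 11.2% and 11.6% of genes were called higher and lower in soma, 11.8% and 13.5% in neurites, and 0.225% and 0.208% for the change in LR). None passed at FDR 0.01.

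In N2A cells Lars2 was again higher in neurites. Wild-type N2A cells were at 2257, 1015 and 574 CPM in soma and at 26921, 8877 and 10538 CPM in neurites, and knockout cells at 1251, 904 and 700.5 CPM and at 18952, 5386 and 7272 CPM. The wild-type LR was 3.59 ± 0.57 (adjusted p = 4.93e-05; 32.5% of 17912 genes were called higher in neurites and 26.6% lower). Knockout against wild-type gave -0.43 ± 0.52 in soma and -0.55 ± 0.52 in neurites, and the change in LR was -0.12 ± 0.73 (adjusted p = 0.544, 0.523 and 0.926), none of which passed (10.9% of genes were called higher and 5.15% lower in soma, 6.48% and 5.1% in neurites, and 0.0893% and 0.0112% for the change in LR). In the transgene libraries Lars2 was lower throughout, at 225, 236 and 124 CPM in soma with WT TDP-43 and at 320, 346 and 210 CPM with Q331K TDP-43, and at 1100, 1227 and 1529 against 1367, 1169 and 2084 CPM in neurites. The differences of 0.58 ± 0.24 in soma and 0.26 ± 0.24 in neurites and the change in LR of -0.32 ± 0.34 did not pass (adjusted p = 0.621, 0.765 and 0.999). In these 3 comparisons edgeR called 0% of the 13940 genes kept by the filter, with 995, 1372 and 605 at an unadjusted p under 0.05. DESeq2 called 8 genes higher and 2 lower in neurites and 0 in the others. Without the filter edgeR called 51 higher and 90 lower in soma, 46 and 57 in neurites, and 31 and 22 for the change in LR, and the Lars2 difference in soma then passed.

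In the CAD and N2A libraries of the knockout lines, nearly all of this signal was assigned to 1 transcript, ENSMUST00000217116. The annotation classes it as a target of nonsense-mediated decay. It has 21 exons, shares the start of the last exon (123461499) with the coding transcript and ends 2 bases later. It took 85.1% to 97.2% of the Lars2 counts in CAD and N2A libraries of the knockout lines. The coding transcript ENSMUST00000038863 took 0.138% to 8.66% there. A retained-intron transcript, ENSMUST00000215087, took more counts than the coding one in all CAD and N2A neurite libraries (17463 against 1954 in knockout CAD replicate 2). In the transgene set the coding transcript took 2.16% to 5.64% in neurites and 21.3% to 48.4% in soma. The decay-class transcript took 94.3% to 97.8% and 50.8% to 78.3% there. The split is a Salmon estimate, since reads in sequence that transcripts share cannot be assigned by sequence. Per length, the coding transcript was at 19.3 to 28.1 TPM in wild-type CAD soma and at 6.75 to 14.4 TPM in wild-type CAD neurites, the reverse order of the gene's summed CPM, while its TMM-scaled level was 60.8 ± 11.2 CPM (SD, n = 3) in soma and 101 ± 18.4 CPM in neurites, an LR of 0.73. With protein-coding transcripts only, the wild-type LR was 0.58 in CAD cells (adjusted p = 0.00101) and -0.36 in N2A cells (adjusted p = 0.0255). The direction of LR in N2A cells thus depended on the transcripts counted.

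Levels of 5 genes that share sequence with Lars2 or are annotated over ribosomal RNA were compared with those of Lars2. No values are given for the other planned genes of this kind. AA474408, Gm42418 and Gm15564 were higher in all CAD neurite than in all CAD soma libraries. The share of all genes that separated in this way was not counted, but 23.7% of all genes were called higher in wild-type CAD neurites. AA474408, which shares sequence with the middle of the tiled UTR and was added to the list after its values were seen, was at 380 to 1815 CPM in CAD soma and at 3448 to 8710 CPM in CAD neurites, with a wild-type LR of 2.65 ± 0.49. Gm42418, annotated over ribosomal RNA sequence, was at 3508 to 15519 CPM in soma and at 18682 to 48472 CPM in neurites, with a wild-type LR of 2.06 ± 0.47. Gm15564, near the floor, was at 0.226 to 0.974 CPM in soma and at 1.47 to 4.46 CPM in neurites. CT010467.1 was at 10.9 to 56.8 CPM in soma and 51.0 to 187 CPM in neurites, which overlapped, and so did Gm26917 between compartments (228 to 518 and 167 to 505 CPM). In N2A cells AA474408 had a wild-type LR of 3.58 ± 0.54 and Gm42418 of 1.72 ± 0.53, while Gm26917 was at 617 ± 234 CPM (SD, n = 3) in soma and 363 ± 164 CPM in neurites of wild-type cells. Reads of Lars2 could not be told apart from reads of other RNAs where the sequence is shared. The tiled part of the coding transcript was searched against the other annotated transcripts, and no stretch aligned to Gm42418, Gm26917 or CT010467.1. Only AA474408 and Gm15564 held any 31-base word of the whole coding transcript. Ribosomal RNA itself was not compared, and the other Lars2 transcripts, which took most of the counts, were not searched. How much reads of shared sequence add to the Lars2 value was not tested.

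Lars2 belongs to the set of mitochondrial aminoacyl-tRNA synthetases and amidotransferase subunits, which load or correct tRNAs in mitochondria. All 22 listed genes were measured. In CAD cells 4 rose and 3 fell in knockout soma, and 6 rose and 5 fell in knockout neurites, where 11.2% and 11.6% of all genes (soma) and 11.8% and 13.5% (neurites) were called. The medians were 0.11 and -0.06 against 0.002 and 0.004 over all genes. Rars2 and Wars2, the arginyl and tryptophanyl enzymes, rose by 0.84 ± 0.09 and 0.85 ± 0.08 in soma, and Gatc, an amidotransferase subunit, fell by 0.995 ± 0.106 (edgeR adjusted p = 2.93e-06, 4.80e-07 and 2.29e-06). For wild-type LR 9 of the 22, Lars2 among them, were called higher in neurites and 0 lower in CAD cells (23.7% and 17.7% of all genes, median 0.22 against -0.02), and 11 and 2 in N2A cells (32.5% and 26.6%, 0.57 against -0.03). For the change in LR on TDP-43 loss 0 of 22 passed in either line (medians -0.07 and -0.12, all genes -0.005 and -0.01). In N2A cells 2 rose in knockout soma and 1 in knockout neurites (10.9% and 6.48% of all genes were called higher), and none of the 22 passed in the transgene comparisons.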

How the data were processed

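The authors used cutadapt to trim MPRA reads and bowtie2, end to end, to place them on the oligos, and deposited counts of unique UMIs per oligo (UMIs of 8 bases). The RBNS and SLAM-seq files hold the authors' deposited counts of reads per oligo and of converted and unconverted T positions. For RNA-seq the authors deposited Salmon estimated counts and TPM per transcript. Version numbers of these tools are not given in the sources used here. The build is mm10, and names and positions came from GENCODE vM21, a later release than the methods name.

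Estimated counts were summed per gene and rounded. Oligos, pairs of wild-type and mutated oligos, and genes were tested with edgeR 4.0.16 (quasi-likelihood test, 1 fit per assay or RNA-seq set, Benjamini-Hochberg adjustment, FDR 0.01 for MPRA and genes, 0.05 for RBNS and SLAM-seq) in R 4.3.3. MPRA and gene counts were scaled by TMM, and RBNS by total reads. SLAM-seq oligos needed 1000 T positions in each labelled library. CPM values are TMM-scaled. R used 0.5 added to each count. Alternatives used DESeq2 1.42.0 and limma 3.58.1. Tables were made with Python 3.11.15, numpy 2.4.6, pandas 2.3.3 and scipy 1.17.1, and shared stretches with BLAST+ 2.17.0. Each fit was tested on simulated data with 200 changed features.

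The members, lists and tests were chosen with earlier results of these data known. Named oligos are the 3 highest and 3 lowest called estimates per test (the most extreme one where none was called), the 3 highest mean R of each form at 500 nM, the 3 pairs that differed most in R, the pair with the most motifs, and the first and last oligo. Other oligos were named after their values were seen. The 12 human libraries were not used. Intervals cover counting error only, and depth is given in the text above.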

Additional observations from a re-analysis of the deposited data

Results flagged for a closer look

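Among 104 groups of 4 MPRA libraries checked for a library far from the others (25 oligos and the Lars2 share), 7 held one, where chance alone gives about 5% of groups. In knockout soma, wild-type oligo 38, whose counts were not told apart from its mutated form, was at 49.6 CPM in replicate 1 against 45.4 to 45.9 in the others, oligo 95 at 66.0 CPM in replicate 2 against 69.9 to 70.2, and oligo 96 at 41.1 CPM in replicate 4 against 44.0 to 44.5. In knockout neurites, replicate 1 was the low library for wild-type oligo 109 (20.5 CPM against 26.0 to 26.8), mutated oligo 68 (66.2 against 75.8 to 77.3) and wild-type oligo 76 (112 against 122 to 124). The Lars2 share of UMIs was 1.23% in 1 knockout neurite library and 1.17% to 1.18% in the other 3. No cause was tested.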

How the results depend on the processing

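Of the results that answer a comparison, 201 values under alternatives kept their direction and side of the threshold or, for counts of called oligos, stayed within 1.5 times the count given above. Of the others 41 moved further, 13 changed sign, 4 came to pass and 1 no longer passed, and their cause was not tested. In the MPRA, an FDR of 0.05 gave 6 called oligos in soma and 7 in neurites, DESeq2 gave 2 in soma, read counts in place of UMIs gave 1 and 2, and total-count scaling gave 63, 239, 230 and 223 for soma, neurites, LR in knockout cells and its change. With that scaling LR in knockout cells was -0.062 for wild-type oligo 64, -0.15 for its mutated form and -0.16 for wild-type oligo 68, and oligo 111 was at -0.20 for the change in LR and -0.38 in neurites. Leaving out 1 replicate gave 0 to 2 calls in neurites, 6 to 13 for LR in wild-type and 7 to 13 in knockout cells.

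In RBNS at 50 nM, an FDR of 0.01 gave 39 calls, DESeq2 68 (5 higher, 63 lower), TMM scaling 62 and 0 nM as denominator 51. At 500 nM these were 42, 60 (23 higher, 37 lower), 56 and 66. Leaving out 1 library gave 18 to 92, 51 to 97 and, for pairs, 0 to 1, and an FDR of 0.01 gave 1 pair. Against 0 nM, oligo 5 was at -0.050 (5 nM), and oligo 132, with 0 reads at 0 nM and at most 2 in the bound libraries together, could be given no fold. In SLAM-seq, leaving out 1 replicate gave 0 to 187 calls in wild-type cells, 0 to 218 in knockout cells and 0 to 207 for the change, and without knockout replicate 1 at 12 h, chosen after seeing the data, 216, 218 and 214. Rates relative to the library median, also chosen after seeing the data, gave 0 in knockout cells, 0.46 for oligo 121 and 0.36 for oligo 44. The change for oligo 120 ranged from -0.27 to 0.75 with 1 replicate left out and was -0.10 without that library.

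For the gene, no filter gave -0.42 in CAD neurites, -0.80 for the CAD change in LR, -0.55 in N2A neurites and 0.59 for Q331K soma, all past the threshold. Protein-coding transcripts gave 0.20 in N2A soma, 0.26 in N2A neurites, -0.36 for N2A LR, 0.061 for its change and -0.32 in Q331K neurites, and the coding transcript alone 0.31, 0.21, -0.028 and -0.32 (N2A soma, N2A neurites, N2A LR, Q331K neurites). Upper-quartile scaling gave 0.0071 for the N2A change in LR. Leaving out 1 replicate gave -0.76 to 0.092 in CAD neurites, 2.49 to 3.01 for CAD LR, -0.54 to 0.012 in N2A soma and -0.63 to 0.016 for the N2A change in LR.

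The labels tie no replicate number to a shared batch, and not all same-numbered libraries of any assay deviated together. They correlated above 0.1 in 12 of 24 MPRA, 2 of 6 RBNS, 1 of 15 SLAM-seq, 14 of 18 CAD, 9 of 18 N2A and 7 of 18 transgene pairings. The closest library of another group carried the same number for 5 of 16 MPRA, 0 of 6 RBNS, 1 of 11 SLAM-seq, 10 of 12 CAD, 12 of 12 N2A and 6 of 12 transgene libraries. With the replicate block, 99 oligos were called at 50 nM, 64 at 500 nM, 4 pairs, 17 and 18 oligos for LR in wild-type and knockout cells, and the gene's LR was 2.75 ± 0.30 SE in CAD and 3.61 ± 0.24 in N2A cells. With the 500 nM numbers crossed these were 129, 88 and 4.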
